A study of Mus musculus with 4 samples.

Results

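A total of 80 genes were nearly silent in vehicle-treated 3T3-L1 preadipocytes and were listed at 3 FPKM or more after Nutlin-3a. They were chosen from 16685 gene symbols, the 16709 in the table without the Snora, Snord and Mir symbols of small RNAs. A symbol was taken when its transcripts summed to at least 3 FPKM in Nutlin-3a and to under 0.5 FPKM in DMSO. FPKM counts fragments per kilobase of transcript relative to library size, so levels are per length. Since the 2 group values chose the genes, they are given as a description and were not tested. Pairs of values are in the order Nutlin-3a against DMSO.

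3T3-L1 is an established mouse fibroblast-like line that can be turned into fat cells and was studied here as preadipocytes. All cultures grew in DMEM with 10% FBS, and total RNA was taken with TRIzol. One group received Nutlin-3a dissolved in DMSO at 25 µM for 24 h, and the other received the same amount of DMSO alone. Biological replicates were 2 for either treatment, so 4 libraries were sequenced. The question was how the preadipocyte transcriptome differs once p53 is activated. The authors' table gave each transcript 1 FPKM value for either treatment, with no value for a single library. No difference below could be set against the spread between replicates, the depth of the libraries is unknown, and no p-value was computed. "Higher" and "lower" describe these group values alone. In bulk RNA, more cells with a transcript and more RNA per cell cannot be told apart.

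Nutlin-3a fills the pocket of the ubiquitin ligase MDM2 that holds the tumour suppressor p53. Freed from MDM2, p53 accumulates and binds DNA as a tetramer, at paired copies of a short decamer called the p53 half-site. Its best known targets halt the cell cycle, start apoptosis and curb growth signalling. Many of the 80 genes are known from other tissues: hormone precursors of the hypothalamus and gut, genes of B cells, neurons, muscle, sperm and digestive glands.

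Markers of the labelled cell type were present. All 20 preadipocyte and fibroblast markers were listed above 0 in both groups, and 18 of 20 reached 1 FPKM in each. Their summed level was 4996 FPKM with Nutlin-3a and 13682 FPKM with DMSO. Of the 18 that entered the comparison of expressed genes, 11 were at least 2-fold lower in Nutlin-3a and none was at least 2-fold higher. That comparison took 10331 symbols with a mean of at least 1 FPKM and a value above 0 in both groups, of which 6.62% were at least 2-fold higher and 6.14% at least 2-fold lower on the log2(FPKM + 1) scale. Its log2 ratios understate the difference of weakly expressed genes. Over the whole table FPKM summed to 967341 for Nutlin-3a and 980491 for DMSO.

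The rule took 0.479% of all symbols without small RNAs, and 1.39% of the 5767 symbols under 0.5 FPKM in DMSO. The same rule with the groups exchanged took 8 symbols, which is 0.0479% of all symbols and 0.153% of the 5220 under 0.5 FPKM in Nutlin-3a. Of those 8, 2 were listed at 0 in Nutlin-3a, and a failed estimate can also appear as 0. They were Mdm2, at 773 FPKM in DMSO, and 1190005I06Rik, at 13.7 FPKM in DMSO. The others included Zfp467, a zinc finger gene (0.290 against 10.9 FPKM), and Gper1, a membrane estrogen receptor gene (0.280 against 4.34 FPKM). The 80 genes are shown against all other symbols in the plot of both group values.

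**Figure D1:**
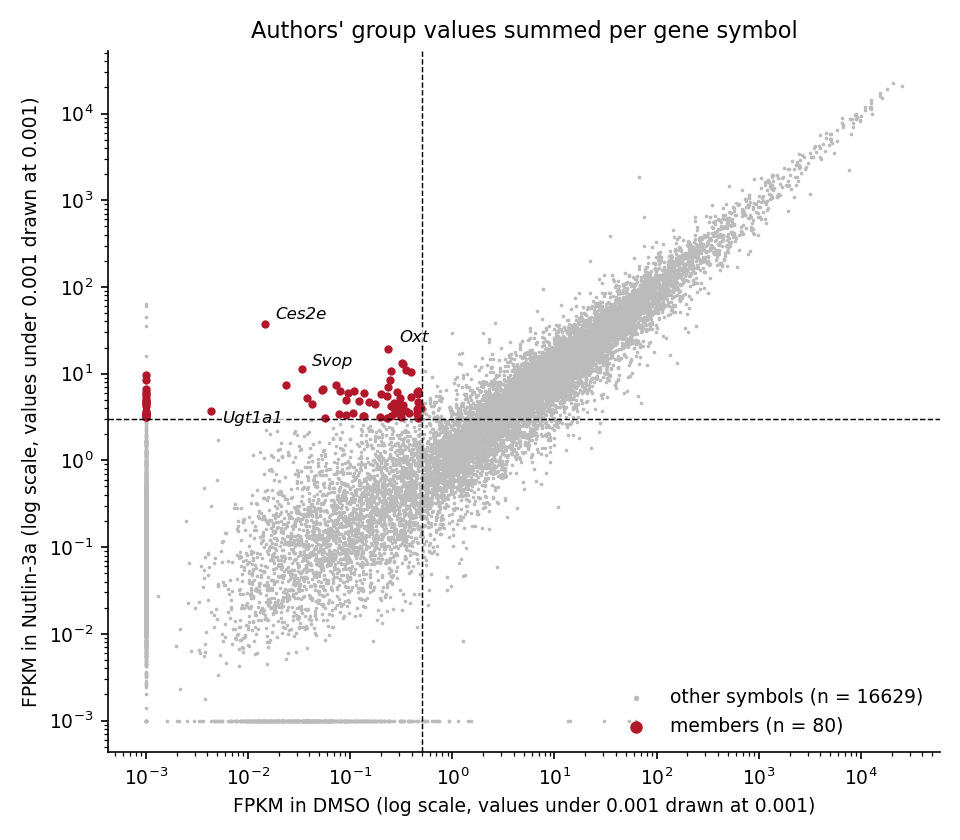
FPKM per gene symbol in DMSO (horizontal) and Nutlin-3a (vertical), both on log scales, with values under 0.001 drawn at 0.001. The dashed lines are the limits of 0.5 and 3 FPKM, the 80 chosen genes are red, and the other 16629 symbols are grey, among them the small RNAs that were left out. Ces2e lies farthest above the limit, at 37.5 FPKM.

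Within the 80, the levels in Nutlin-3a ran from 3.06 to 37.5 FPKM with a median of 4.67. In DMSO they ran from 0 to 0.495 FPKM with a median of 0.135. Most levels were low: 47 genes were under 5 FPKM in Nutlin-3a and 8 were above 10. In DMSO 21 genes (26.25%) were listed at 0, beside 40.6% of all 5767 symbols under 0.5 FPKM in DMSO. These 21 are given no fold, because a failed estimate can also appear as 0. For the other 59 genes the median fold was 25.5, from 6.60 for Gatsl3 to 2532 for Ces2e. Folds against values this close to 0 are unstable, and 7 of the 59 were under 10 while 15 were over 50.

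Zeros were unevenly divided between the groups in the whole table. Among all symbols 466 (2.79%) were listed at 0 in Nutlin-3a and 2346 (14.0%) in DMSO. The other 5687 symbols under 0.5 FPKM in DMSO were also higher in Nutlin-3a in 78.1% of cases, with a median of 0.0960 FPKM against 0.0193 FPKM. That set was itself chosen on low DMSO values. Among the 5220 symbols under 0.5 FPKM in Nutlin-3a, 69.8% were higher in Nutlin-3a. A set of 63 olfactory and vomeronasal receptor genes, which fibroblasts should not express, had 46 genes at 0 in DMSO and 5 at 0 in Nutlin-3a. Their median in Nutlin-3a was 0.0504 FPKM. In that set 1 reached 3 FPKM in Nutlin-3a, the pseudogene Olfr856-ps1, at 15.99 against 4.65 FPKM. The part that this general shift near 0 has in the 80 genes was not tested.

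Several genes lay close to the limits of the rule. The lowest genes inside were Gatsl3 (3.06 FPKM in Nutlin-3a), 2310008N11Rik (3.08) and 1700125H20Rik (3.10). Just outside were Slc23a3, a transporter gene (2.97 against 0.330 FPKM), Hcrt, the hypocretin precursor (2.97 FPKM against a listing at 0), and Mars2, a mitochondrial methionyl-tRNA synthetase gene (2.95 against 0.465 FPKM). At the DMSO limit, B230208H11Rik (0.495 FPKM) and Cpeb2, an mRNA-binding translation regulator (0.476 FPKM), lay inside. Ptprcap, a lymphocyte phosphatase-associated gene (0.503 FPKM in DMSO), Tnnc2, the fast muscle troponin C gene (0.503 FPKM), and Ramp3, a receptor activity-modifying protein gene (0.533 FPKM), lay outside. Tnnc2 missed the rule by its DMSO value although it stood at 21.6 FPKM in Nutlin-3a.

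The DNA just ahead of the 2 genes with the highest level in Nutlin-3a is shown first, because both start in DNA with few CG dinucleotides, as many of the 80 did. The sequences are the 250 bases before the annotated start, from RefSeq on GRCm38.p6, 5′ to 3′ on the gene's strand, with CG in capitals. For Ces2e the stretch is chr8:104926010-104926259 on the plus strand with 2 CG, and for Oxt it is chr2:130575919-130576168 on the plus strand with 4 CG.
Ces2e: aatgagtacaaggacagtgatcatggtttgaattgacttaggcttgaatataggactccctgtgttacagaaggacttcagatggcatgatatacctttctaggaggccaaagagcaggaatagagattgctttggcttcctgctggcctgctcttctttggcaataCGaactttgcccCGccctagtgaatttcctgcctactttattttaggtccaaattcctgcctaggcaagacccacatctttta
Oxt: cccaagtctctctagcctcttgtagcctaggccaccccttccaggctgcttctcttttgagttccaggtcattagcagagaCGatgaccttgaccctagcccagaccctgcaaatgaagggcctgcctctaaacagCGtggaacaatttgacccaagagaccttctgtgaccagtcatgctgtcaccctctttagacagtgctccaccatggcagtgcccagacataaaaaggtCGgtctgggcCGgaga
RefSeq promoters of 300 bases (250 before the start and 50 after it) were found for 63 of the 80 genes. Their median was 4 CG, against 8 in the other low-DMSO symbols and 18 over 12503 symbols with a promoter. Cpm, a carboxypeptidase gene, and Foxo3 stood at the other end with 37 and 35 CG.

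Matches to the p53 half-site are shown next, since p53 is what the compound releases. The pattern is the published decamer consensus, which reads as the same pattern on both strands and allowed no mismatch. It was found in a promoter of 11 of the 63 genes (17.5%), in 9.34% of the other low-DMSO symbols and in 8.45% of all symbols with a promoter, counting a symbol when any of its listed starts had a match. No promoter of the 63 held a pair of matches within 13 bases, against 2 among the other low-DMSO symbols and 6 among all symbols. Examples follow with the match in capitals and up to 10 bases on either side, 5′ to 3′ on the gene's strand. They lie at chr10:81482862-81482891 (Celf5, minus), chr2:181314673-181314702 (Stmn3, minus), chr8:10006482-10006511 (Tnfsf13b, plus), chr4:133263309-133263337 (Sytl1, minus), chr8:111691002-111691031 (Ctrb1, minus) and chr19:6384263-6384292 (Pygm, plus), in GRCm38.p6.
Celf5: tctttctgatGGGCATGCCCagcctgaagt
Stmn3: cctgactatgAGACAAGCCCatactctggc
Tnfsf13b: caccttcgatAAGCTTGTCTggagtgagtc
Sytl1: caaggccccGAGCTAGCCCtgtaggtgag
Ctrb1: gcctcagagtAGGCAAGCTTcattcccttc
Pygm: gggctgtggaGAGCTTGTTCctccctcctc
The letters are a description of these windows and show neither a bound site nor a cause. A list of p53 targets holds 6 of the 80 genes, and of the 5 among them with a promoter in the table Sytl1 alone had a match. The TATA box letters TATAAA, read on both strands, were in 7 of the 63 promoters (11.1%), against 14.7% of the other low-DMSO symbols and 10.3% of all symbols with a promoter, and those 7 included Gast, Cd80, Il17f and Wfdc18.

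Known p53 targets were among the 80 genes. Of 69 genes on the p53 target list with a value in the table, 6 passed the rule: Ces2e, Svop, Cd80, Sesn2, Sytl1 and Pidd1. That is 8.70% of the list beside 0.479% of all symbols, and the list was drawn up with earlier results of these data known. Over the 58 list genes in the comparison of expressed genes, 38 were at least 2-fold higher and 1 at least 2-fold lower in Nutlin-3a, with a median log2 ratio of 1.58 beside 0.07 over all symbols compared. Without the 6, whose direction the rule fixed, 32 of 52 were at least 2-fold higher. Mdm2, also on the list, did not enter that comparison because of its listing at 0 in Nutlin-3a, beside 773 FPKM in DMSO.

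Ces2e, a carboxylesterase gene on chromosome 8 (104926260 to 104934672, mm10), had 37.5 FPKM with Nutlin-3a and 0.0148 FPKM with DMSO. This was the highest level and the highest fold of the 80. Its main transcript stood at 35.7 FPKM against a listing at 0, and a second transcript at 1.78 against 0.0148 FPKM. Among the 10 listed carboxylesterase genes it was alone in passing the rule. Ces2g was 6.85-fold higher (5.25 against 0.767 FPKM), Ces2b and Ces2f stayed under 0.1 FPKM in both groups, and Ces1g was lower (0.800 against 3.19 FPKM). These relatives are close copies that can share reads, so the split between them is uncertain.

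Svop, a gene of a transporter-like protein of synaptic vesicles, had 11.2 FPKM with Nutlin-3a and 0.0341 FPKM with DMSO. It overlaps Usp30, a deubiquitinase gene on the other strand (13.3 against 8.25 FPKM), and whether strand was used in counting is not given in the sources used here. Cd80, which encodes a surface ligand that co-stimulates T cells, had 6.28 against 0.110 FPKM. Sesn2, a stress-induced brake on the growth kinase complex mTORC1, had 5.4 against 0.392 FPKM. Its relatives split: Sesn3 was higher (25.9 against 7.89 FPKM) and Sesn1 lower (3.97 against 5.6 FPKM). Pidd1, the scaffold of a complex that activates caspase-2, had 4.23 against 0.256 FPKM, and Sytl1, a Rab27-binding vesicle protein gene, had 4.34 against 0.330 FPKM.

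Off the list, 3 genes known from stress and nutrient sensing passed the rule as well. Foxo3, a transcription factor of stress resistance, had 3.13 FPKM with Nutlin-3a and 0.314 FPKM with DMSO. Of its relatives, Foxo1 was 1.62-fold higher (2.66 against 1.64 FPKM), and Foxo4 and Foxo6 were lower (2.05 against 3.65 FPKM and 1.36 against 3.74 FPKM). Atg9b, a membrane protein of autophagy, had 4.41 against 0.0423 FPKM, while its relative Atg9a had 5.81 against 5.18 FPKM. The Atg9b model overlaps that of Nos3. Gatsl3, named Castor1 in RefSeq and known as an arginine sensor of the mTORC1 pathway, had 3.06 against 0.463 FPKM. This grouping, and the ones that follow, were made after the values were seen.

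Precursors of peptide hormones numbered 6. Oxt, the oxytocin precursor on chromosome 2 (130576169 to 130577053), had 19.3 FPKM with Nutlin-3a and 0.234 FPKM with DMSO. Avp, the vasopressin precursor, lies 3623 bases away on the opposite strand, end to end with Oxt, and had 4.61 FPKM against a listing at 0. Oxt and Avp were 1 of 2 places where chosen genes lay within 100 kb of each other. The other was Jph2 and Gdap1l1, 40473 bases apart on the same chromosome.

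Spx, the precursor of spexin, had 10.6 FPKM with Nutlin-3a and 0.253 FPKM with DMSO. Kiss1, the kisspeptin precursor that governs the reproductive axis, had 6.23 FPKM against a listing at 0. Ghrl, the precursor of the appetite hormone ghrelin, had 6.24 against 0.460 FPKM. Its 7 listed transcripts differed: the main transcript stood at 5.01 FPKM against a listing at 0, while another was at 0.460 FPKM in DMSO and listed at 0 with the compound. Gast, the gastrin precursor of the stomach, had 3.46 against 0.453 FPKM.

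Most listed hormone precursors did not pass the rule. On a list of neuropeptides and peptide hormones 38 genes had a value in the table. Of these, 5 were among the 80 (13.2%, beside 0.479% of all symbols), while Gast was not on that list. Like the p53 list and the marker lists, it was drawn up with earlier results of these data known. Of the 12 in the comparison of expressed genes 4 were at least 2-fold higher and 1 at least 2-fold lower, with a median log2 ratio of 0.36. Without the chosen genes 1 of 9 was at least 2-fold higher. That comparison left out every precursor listed at 0 in DMSO, which were 15 of the 38, among them Hcrt (2.97 FPKM in Nutlin-3a). Precursors already expressed in DMSO included Insl3 (36.4 against 23.7 FPKM), Npff (6.61 against 10.1 FPKM) and Nmb (4.91 against 6.52 FPKM). Galanin's gene, Gal, fell short of the rule with 2.32 FPKM against a listing at 0.

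**Figure D2:**
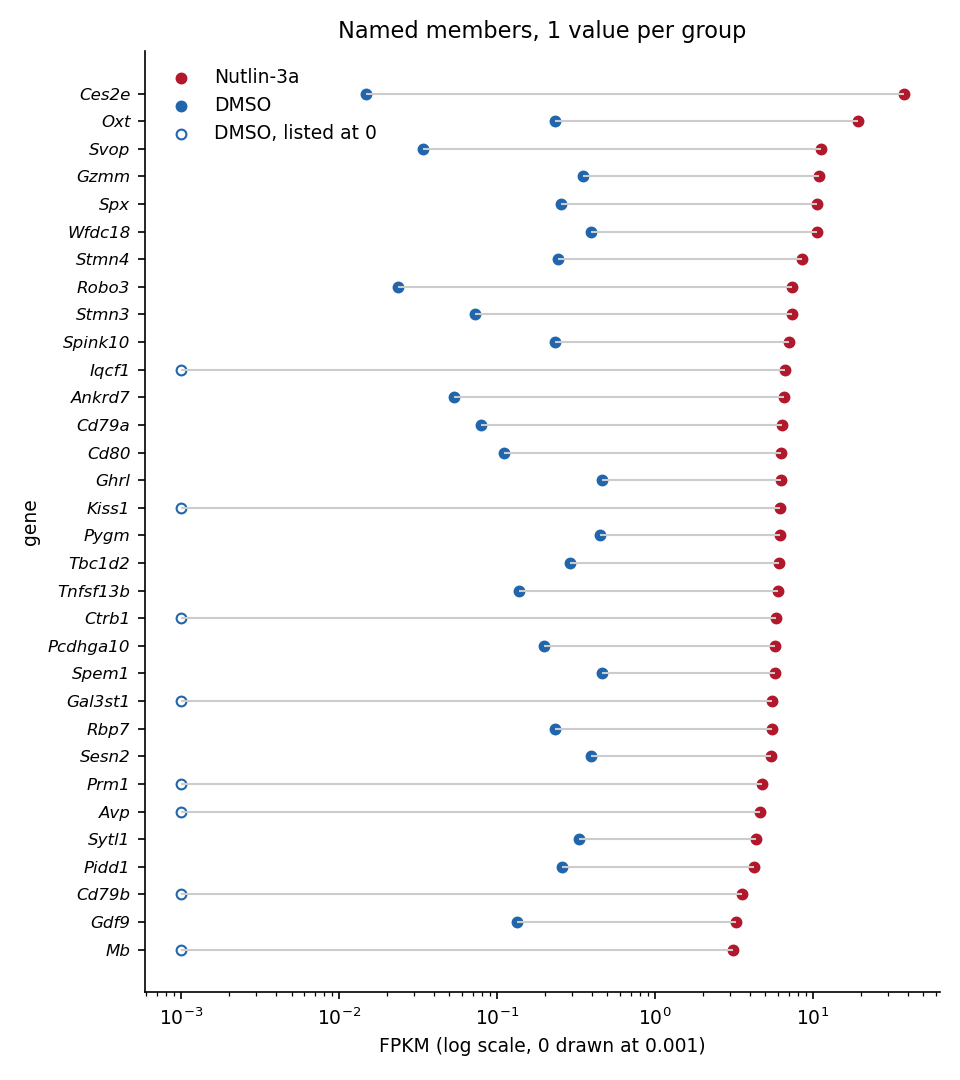
FPKM in Nutlin-3a (red) and DMSO (blue, open where listed at 0) for 32 of the named genes, on a log axis with 0 drawn at 0.001. These are the 25 highest in Nutlin-3a without predicted genes, and every chosen gene on a list. Each point is the authors' single group value, with no replicate error. The genes are ordered by their level in Nutlin-3a, from Ces2e at 37.5 FPKM to Mb at 3.13 FPKM.

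Genes of lymphocytes and innate immunity made up 9 of the 80. Gzmm, a serine protease of killer cell granules, was highest at 10.9 FPKM in Nutlin-3a against 0.349 FPKM in DMSO, while its relatives Gzma and Gzmk stayed under 0.1 FPKM. Cd79a and Cd79b, which together form the signalling pair of the B cell receptor, were both chosen. Cd79a had 6.39 against 0.0790 FPKM, and Cd79b had 3.57 FPKM against a listing at 0. They lie on chromosomes 7 and 11.

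Other immune signals were a B cell growth factor, an interleukin and a lipid receptor. Tnfsf13b, which encodes the B cell survival factor BAFF, had 5.98 against 0.137 FPKM. In its ligand family, 9 further genes were listed and none of them passed the rule, with Tnfsf12 lower in Nutlin-3a (22.3 against 53.6 FPKM). Il17f, an inflammatory cytokine gene, had 4.97 against 0.0908 FPKM. Ltb4r1, the receptor of leukotriene B4, had 3.33 FPKM against a listing at 0, and Ltb4r2, 823 bases away, had 1.12 against 0.0567 FPKM. The remaining immune genes were Pld4 (4.88 against 0.121 FPKM), Ly6d (3.91 against 0.450 FPKM) and Oas1f (3.14 FPKM against a listing at 0).

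Markers that leukocytes share were mostly near 0. On the list of 18 macrophage and leukocyte markers, Cd79a and Cd79b were the 2 chosen genes (11.1%, beside 0.479% of all symbols). With DMSO 9 markers were at 0 and with Nutlin-3a none was. The summed level was 24.6 FPKM with Nutlin-3a and 8.75 FPKM with DMSO, or 14.7 and 8.67 FPKM without the chosen pair. Ptprc, the pan-leukocyte marker CD45, had 0.0618 FPKM with Nutlin-3a and a listing at 0 with DMSO. The highest besides the chosen pair were Cd68, a macrophage lysosome protein (6.52 against 2.91 FPKM), and Cd14, a receptor for bacterial lipid (3.03 against 4.48 FPKM).

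Nerve cell genes were as many, 9 of the 80. Stmn3 and Stmn4, stathmins that bind tubulin in neurons, had 7.36 against 0.0723 FPKM and 8.55 against 0.244 FPKM. The widely expressed Stmn1 went the other way, with 134 FPKM with Nutlin-3a and 211 FPKM with DMSO, and the neuronal Stmn2 stayed under 0.1 FPKM in both. Robo3, an axon guidance receptor gene on chromosome 9 (37416045 to 37433175), had 7.37 against 0.0238 FPKM. Its neighbour Robo4, which lies 553 bases away on the opposite strand, was listed at 0.0747 FPKM against 0.

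The other nerve cell genes had lower levels. Pcdhga10, a cell adhesion gene of the protocadherin gamma cluster on chromosome 18, had 5.78 against 0.198 FPKM, but its model overlaps 39 others at the clustered protocadherin locus, where genes share exons, so its value is uncertain. Gdap1l1, a relative of a mitochondrial neuropathy gene, had 5.19 against 0.305 FPKM. Celf5, a splicing regulator of the brain, had 4.32 against 0.298 FPKM, and Ngb, the oxygen-binding neuroglobin, had 4.21 against 0.249 FPKM. The vesicular nucleotide transporter gene Slc17a9 (3.75 against 0.276 FPKM) and Cabp4, a photoreceptor calcium-binding protein gene (3.28 against 0.25 FPKM), completed the group. On the list of 27 neuron and synapse markers Svop was the 1 chosen gene (3.7%, beside 0.479% of all symbols). In DMSO 14 of these markers were at 0 and in Nutlin-3a 1 was, with summed levels of 33.9 and 48.4 FPKM. Without Svop the sums were 33.9 and 37.2 FPKM.

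Muscle genes numbered 4. Pygm, the muscle glycogen phosphorylase, had 6.16 FPKM with Nutlin-3a and 0.448 FPKM with DMSO, while the brain form Pygb was lower in Nutlin-3a (9.53 against 14.6 FPKM). Hhatl, a muscle relative of hedgehog acyltransferase, had 5.27 against 0.0381 FPKM. Jph2, which joins the surface membrane of heart muscle to its calcium store, had 3.42 FPKM, and Mb, the myoglobin gene, had 3.13 FPKM, both against a listing at 0. Of 25 skeletal muscle markers Mb alone was chosen (4%, beside 0.479% of all symbols). With DMSO 11 markers were at 0 and with Nutlin-3a 1 was. The summed level was 61.3 FPKM with Nutlin-3a and 23.6 FPKM with DMSO. Most of the Nutlin-3a sum came from Tnnc2 and from Tnni1, the slow muscle troponin I gene (16.9 against 1.17 FPKM). Of the 25 markers, 20 were higher in Nutlin-3a. In the comparison of expressed genes 3 of 7 were at least 2-fold higher and none was at least 2-fold lower. The median log2 ratio of these 7 was -0.20. Lower among them were Tnni2 (5.66 against 9.81 FPKM), Tnnt3 (1.76 against 3.43 FPKM), Mylpf (1.66 against 2.14 FPKM) and Des (4.15 against 4.90 FPKM).

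Germ line and gonad genes numbered 5. Iqcf1, a sperm protein gene, had 6.64 FPKM against a listing at 0. Spem1, needed for sperm shaping, had 5.77 against 0.462 FPKM. Prm1, which packs DNA in sperm heads, had 4.77 FPKM against a listing at 0, and its neighbour Prm2, 191 bases away, had 0.503 FPKM against a listing at 0. Gdf9, an oocyte growth factor, had 3.25 against 0.134 FPKM, and Amhr2, the receptor of anti-Müllerian hormone, had 3.55 against 0.272 FPKM. Prm1 and Gdf9 were 2 of the 12 listed germ cell markers (16.7%, beside 0.479% of all symbols). Of these 12 markers 6 were at 0 with DMSO and none with Nutlin-3a. The summed level of these markers was 11.7 FPKM with Nutlin-3a and 0.611 FPKM with DMSO, or 3.67 and 0.477 FPKM without Prm1 and Gdf9. The germ cell gene Ddx4 was at 0.0809 and 0.159 FPKM.

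Genes of the gut, liver and digestive glands numbered 8. Ctrb1, the pancreatic chymotrypsinogen, had 5.84 FPKM against a listing at 0. Amy1, a salivary amylase gene, had 4.74 against 0.458 FPKM; near copies in the amylase cluster can share its reads, and it overlaps Rnpc3 (7.38 against 2.62 FPKM) on the same strand. For Plb1, an intestinal phospholipase gene, the values were 4.76 against 0.154 FPKM, and for Npc1l1, the intestinal cholesterol transporter, 3.37 against 0.0912 FPKM. Ugt1a1, which conjugates bilirubin, had 3.76 against 0.00433 FPKM. Its model overlaps 7 others, all but Dnajb3 of the same cluster with shared last exons, among them Ugt1a6b (23.5 against 19.0 FPKM) and Ugt1a6a (1.70 against 9.06 FPKM), so the division of reads between them is uncertain. Slc7a7, an amino acid transporter gene, had 3.53 against 0.375 FPKM and overlaps Oxa1l (10.9 against 15.3 FPKM). Bpifb6 had 4.94 FPKM and Phgr1 3.34 FPKM, the last pair against listings at 0.

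Extracellular proteases and their inhibitors numbered 5. Wfdc18, a small whey acidic protein-type gene, had 10.6 against 0.394 FPKM. Wfdc17, 2746 bases away on the same strand, was also higher (7.13 against 0.711 FPKM) but missed the DMSO limit. Spink10, a serine protease inhibitor gene, had 7.07 against 0.233 FPKM, and Serpinf2, the plasmin inhibitor, had 3.19 against 0.197 FPKM. Asprv1, a skin protease gene, had 3.46 FPKM against a listing at 0. Cpm, a membrane carboxypeptidase gene, had 3.68 against 0.313 FPKM and lies 1522 bases from Mdm2 on chromosome 10, on the opposite strand. Mdm2 is the gene that this table lists at 0 in Nutlin-3a.

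The remaining 25 genes had levels from 3.08 to 13.2 FPKM in Nutlin-3a, with 8 at 0 in DMSO, and 14 of them are listed under predicted or clone names. The highest of these were 4930415O20Rik (13.2 against 0.320 FPKM) and Gm15987 (12.95 against 0.330 FPKM). Named genes included Ankrd7, an ankyrin repeat gene (6.54 against 0.0533 FPKM), Tbc1d2, a regulator of the Rab7 GTPase (6.12 against 0.288 FPKM), and Rbp7, a cytosolic retinol-binding protein gene (5.47 against 0.231 FPKM). Gal3st1, which makes the myelin lipid sulfatide, had 5.47 FPKM against a listing at 0. Bglap2, an osteocalcin gene, had 4.50 against 0.177 FPKM, with its near copies Bglap and Bglap3 at 1.01 and 1.42 FPKM in Nutlin-3a. Gm6484, which RefSeq names Angptl8 and which is known as a lipoprotein lipase regulator of fat and liver, had 4.996 FPKM against a listing at 0, within a model overlapping Dock6.

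Relatives sharing a name stem were listed for 29 stems, and 2 of the chosen genes shared a stem in 2 of them, Cd79 and Stmn. In the other 27 stems a single gene passed the rule. The plot of gene families shows relatives that were already expressed in DMSO. Stmn1, Pygb, Foxo4 and Tnfsf12 were lower in Nutlin-3a, and Sesn3 and Foxo1 were higher. Sesn1, Atg9a and Tnfsf9 differed by less than 1.5-fold.

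**Figure D3:**
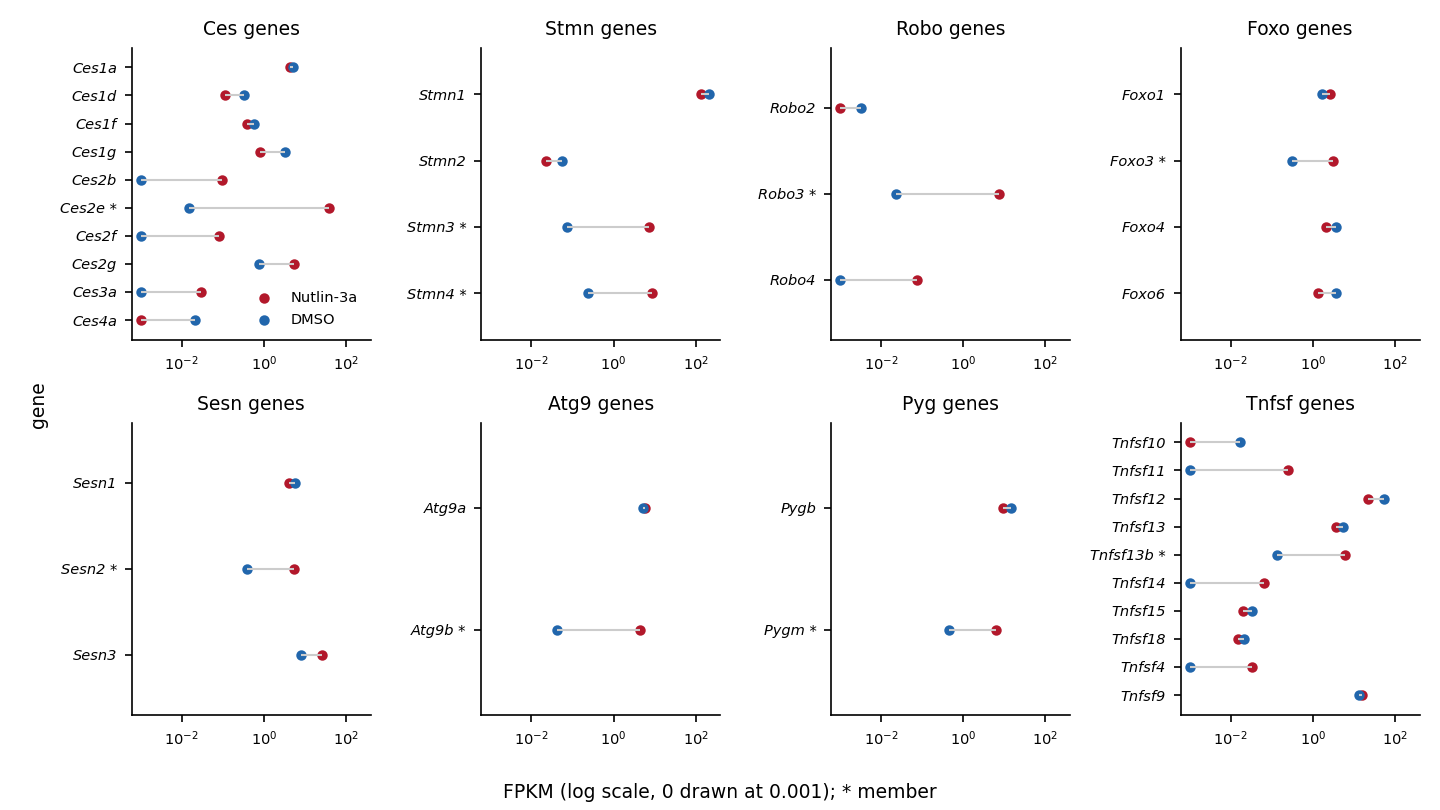
FPKM in Nutlin-3a (red) and DMSO (blue) for the listed genes of 8 families, on log axes with 0 drawn at 0.001; an asterisk marks a gene chosen by the rule, and each point is 1 group value. Robo3, a chosen gene, spans 7.37 against 0.0238 FPKM; a bar that ends at the drawn 0, as for Robo4 or Tnfsf11, has no measured length.

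The remaining marker lists held none of the 80. Of 21 listed mature adipocyte markers 8 entered the comparison of expressed genes. There 4 were at least 2-fold lower in Nutlin-3a and none was at least 2-fold higher. Over all 21, 15 were higher in Nutlin-3a, among them Adipoq (0.840 against 0.0409 FPKM). Listings at 0 numbered 8 in DMSO, and there were none in Nutlin-3a. The summed level of the 21 was 70.7 FPKM with Nutlin-3a and 149.15 FPKM with DMSO. The 23 listed epithelial markers summed to 118 FPKM with Nutlin-3a and 54.6 FPKM with DMSO, with 6 at 0 in DMSO and 1 in Nutlin-3a. Krt15 alone had 85.5 against 29.2 FPKM. Of the 6 epithelial markers in the comparison of expressed genes, 1 was at least 2-fold higher and none was at least 2-fold lower. The 7 listed endothelial markers summed to 5.07 FPKM with Nutlin-3a and 8.78 FPKM with DMSO. Most of the DMSO sum came from Egfl7 (1.39 against 7.62 FPKM). Of the 7, 4 were higher in Nutlin-3a, among them Pecam1 (1.57 against 0.0260 FPKM). The part that RNA of other cell types has in the 80 genes was not tested.

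By structure, the 80 genes were mostly protein coding, and their transcripts were short. In GENCODE M21, 77 of 80 were found by symbol, with 69 protein coding (89.6%), 7 long intergenic RNAs and 1 antisense RNA. The share of protein-coding genes was 87.8% among the other low-DMSO symbols and 93.8% among all annotated symbols. The median transcript length was 1616 bases, against 2793 in the other symbols under 0.5 FPKM in DMSO and 3109 over all symbols. The median GC content of the transcripts was 54.2% against 49.8% in both other sets. Fam25c, at 408 bases, was the shortest, and the peptide hormone precursors Gast (460 bases), Oxt (537 bases) and Avp (577 bases) were near it. Because FPKM divides by length, a short transcript reaches 3 FPKM with fewer fragments. FPKM times the length in kilobases, which scales with the number of fragments, ran from 1.53 for Fam25c to 101 for Ces2e, with a median of 8.35.

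Most of the 80 rested on 1 transcript. A single transcript was listed for 63 of them (78.8%), beside 73.7% of all symbols. In 14 of the other 17 over 80% of the Nutlin-3a level came from 1 transcript, and the lowest such share was 53.2%, in Cpeb2. In 6 genes a transcript carried the class code j, which marks a splice form that differs from the reference one; among them were Stmn4, Rbp7 and Bglap2.

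Expressed genes just upstream were more frequent next to the 80 than next to other symbols. Of the 77 annotated genes, 16 (20.8%) had a gene of at least 10 FPKM in both groups that ended within 10 kb upstream on the same strand. That share was 5.13% of the other low-DMSO symbols and 7.26% of all symbols. For such a gene downstream on the same strand the shares were 7.79%, 4.52% and 7.07%, and on the opposite strand upstream they were 6.49%, 3.76% and 6.24%. With a window of 5 kb 8 genes remained (10.4%), beside 2.99% and 4.54%, and with 20 kb 23 did (29.9%), beside 8.45% and 11.1%. The limits and windows were chosen after the values were seen.

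**Figure D4:**
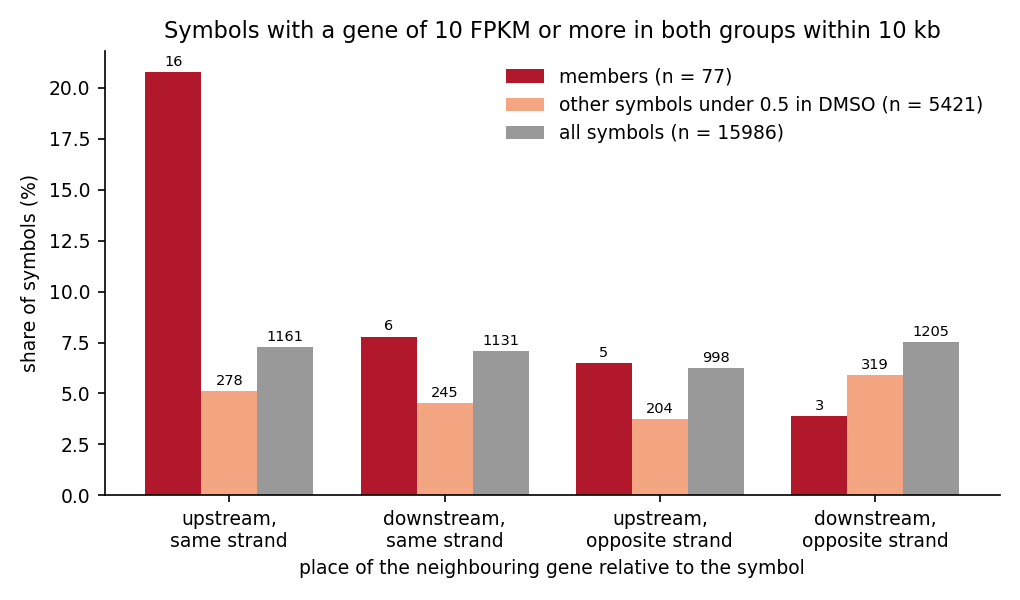
Share of symbols (percent) with a neighbour of at least 10 FPKM in both groups within 10 kb, by its place and strand, for the 77 annotated chosen genes (red), 5421 other symbols under 0.5 FPKM in DMSO (orange) and all 15986 annotated symbols (grey), with the count over each bar. The red bar for upstream neighbours on the same strand stands at 20.8%, the others at 3.90% to 7.79%.

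The 16 pairs included several of the genes with the highest levels. Gzmm begins 621 bases after Cdc34, a ubiquitin-conjugating enzyme gene at 374 FPKM with Nutlin-3a and 148 FPKM with DMSO. Spem1 begins 941 bases after Nlgn2 (14.1 and 13.9 FPKM), and Oxt begins 7477 bases after Mrps26, a mitochondrial ribosomal protein gene (307 and 261 FPKM). Cd79a lies 7574 bases after the ribosomal protein gene Rps19 (5587 and 3986 FPKM), and Ghrl 8181 bases after Sec13 (133 and 109 FPKM). Of the 16 upstream genes 14 were higher in Nutlin-3a, 2 of them at least 2-fold, with a median log2 ratio of 0.26. Over the 10331 symbols in the comparison of expressed genes 54.8% were higher and 6.62% at least 2-fold higher, with a median log2 ratio of 0.07. The 16 genes had a median of 5.62 FPKM with Nutlin-3a and 0.243 FPKM with DMSO, and the 64 without such a neighbour 4.59 and 0.108 FPKM. The part that transcripts running past an upstream gene's end have in these values was not tested.

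Overlapping models touched fewer genes. In 3 of the 77 (3.90%) the annotated gene overlapped one of at least 10 FPKM in both groups, beside 7.31% of all symbols. The 80 genes lay on 18 chromosomes. Chromosome 11 held 10 (0.722% of its 1385 symbols) and chromosome 2 held 9 (0.669% of its 1345 symbols), beside 0.479% of all symbols.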

How the data were processed

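Transcript levels were measured in 4 libraries of total RNA, 2 of Nutlin-3a and 2 of DMSO cultures, grouped by the sample labels. The aligner TopHat2 2.0.11 and mm10 appear in the labels, per the submitters' processing notes. Which quantifier and annotation were used, and how replicates were combined, is not given in the sources used here. FPKM values were deposited by the authors, 1 for each transcript under either treatment. A further 2 columns held log2 of these and were not used. Per the file headers the columns are NUT, read as Nutlin-3a, and DSM, read as DMSO, the only other group. FPKM was summed per symbol over 24746 transcripts; 4294 empty lines were dropped. The log2 ratio used a pseudocount of 1.

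The 80 genes and the 11 gene lists were chosen with earlier results of these data known. Named genes were the 25 highest in Nutlin-3a without predicted genes, every chosen gene on a list, the 3 nearest each threshold on either side, genes within 100 kb of each other, and relatives or overlapping genes of named ones. Other genes were named after their values were seen. Gene types, lengths (longest transcript) and neighbours came from GENCODE M21, and promoters from RefSeq (GRCm38.p6), matched by symbol; listed starts count from 0 and are printed counted from 1. No replicate test was possible. The scripts ran on Python 3.11.15 with pandas 2.3.3, numpy 2.4.6 and matplotlib 3.10.9, and the rule, motif search and neighbour search were tested on simulated data. Alternatives were other limits, scalings, pseudocounts and transcript choices.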

Additional observations from a re-analysis of the deposited data

How the results depend on the processing

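The count of 80 genes followed the limits by construction: it was 148 with a minimum of 2 FPKM in Nutlin-3a, 33 with 5 FPKM, 52 with a maximum of 0.25 FPKM in DMSO and 127 with 1 FPKM. The exchanged rule gave 27, 3, 3 and 42 under the same limits in place of 8, and 15 when only a symbol's most abundant transcript was used; the cause of the last was not tested. The 6 genes on the p53 list became 3 with the stricter DMSO limit. Genes with an expressed neighbour upstream went from 16 to 8 with a window of 5 kb, and to between 12 and 23 under the other windows and limits. The remaining alternatives gave 64 to 87 genes, new ones included. Quantile normalization kept 64 of the 80, upper-quartile scaling 79, and the most abundant transcript gave 87, of which 78 were shared. These scalings moved the median log2 ratio of all symbols by -0.06 and -0.01. No log2 ratio of the 32 genes plotted by name changed sign, and a pseudocount of 0.1 raised them by 1.17 to 3.14. Leaving out genes with an expressed neighbour upstream (64 left) or outside the annotation (77 left), and the neighbour windows, were chosen after seeing the data. No paired analysis was possible because the table holds 1 value per group, and no replicate could be left out for the same reason. Depth is unknown, so no limit can be put on values listed at 0.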

Other observations

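The 8 symbols that met the exchanged rule, at 3 FPKM or more in DMSO and under 0.5 FPKM in Nutlin-3a, were also of mixed kinds. For 2 of them, Mdm2 and 1190005I06Rik, the Nutlin-3a value was a listing at 0, which can also be a failed estimate. Beside Mdm2, Zfp467 and Gper1 they were Mrgprf, an orphan receptor gene (0.463 against 4.99 FPKM), Sema3b, a semaphorin gene (0.222 against 3.42 FPKM), Podnl1, a leucine-rich repeat protein gene (0.372 against 3.29 FPKM), Spib, a lymphoid transcription factor gene (0.346 against 3.25 FPKM), and 1190005I06Rik, listed at 0 against 13.7 FPKM. Among genes just over the DMSO limit, Fam212b, which the p53 list holds, stood at 10.8 against 0.536 FPKM.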
